A study of Mus musculus with 15 samples.

Results

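Adding an antibody against PD-1 to a pair of vessel-directed drugs was examined in microvessels isolated from the brains of mice carrying glioblastoma. The comparison set 3 libraries of triple therapy (aflibercept, AMG386 and anti-PD-1) against 3 libraries of dual therapy (aflibercept and AMG386), which are 6 of the 15 libraries of the series. It covered the 19668 of 27174 genes with a value of at least 10 in at least 3 of the 15 libraries. All mice were adult wild types of the strain that the labels write as BL6/57, and those with a tumour were sampled 21 days after its transplantation. Each library is a biological replicate made from a pool of 3 mice. The other groups, with 3 libraries each, were tumour vessels of mice given control IgG (untreated tumour), vessels of the opposite hemisphere of mice given control IgG (contralateral) and vessels of sham operated healthy mice. No group received anti-PD-1 alone, so all statements concern its addition to the dual therapy. The labels do not name the transplanted tumour line.

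Aflibercept is a decoy receptor that binds VEGF, the main growth signal for vessels, and AMG386 is a peptibody that neutralises angiopoietins, the ligands of the endothelial receptor Tek. PD-1 is an inhibitory receptor on activated T cells, and its ligand PD-L1 is induced on many cells, endothelium included, by interferon-gamma. Brain endothelium forms a barrier with tight junctions and dedicated transporters, and leukocytes reach a brain tumour by crossing it. Microvessel preparations keep pericytes and smooth muscle on the vessel wall and can carry along ends of astrocytes, neurons and other neighbouring cells.

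Values are deposited normalised scores, whole numbers that are not read counts. The depth behind them was estimated at 11689710 to 18325067 reads in the 6 libraries. The endothelial identity list (22 genes such as Pecam1, Cdh5 and Tie1) had no member at 0 in any library and summed to 165670 to 195090 after dual and 152217 to 188988 after triple therapy. Its median log2 fold change was -0.06 and none of its genes was called. The dual libraries were spread widely. On the first principal component of the 6 libraries, with 34.7% of their variance, dual replicate 2 lay at 87.79. The other dual libraries lay there at -2.81 and 4.43, and the triple libraries at -32.42 to -27.13. On the second component, with 28.3%, dual replicate 3 lay at -80.41. There the other dual libraries lay at -0.56 and 23.70, and the triple libraries at 7.97 to 34.32.

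At an adjusted p below 0.05 (limma on log2(value + 1), all 15 libraries in the fit), 171 of 19668 genes differed between triple and dual therapy, which is 0.869% of the genes tested. Of these, 103 rose (0.524% of the genes tested), with a median log2 fold change of 0.89, and 68 fell (0.346%), with a median of -1.09. The genes that rose were all protein coding, as are 75.6% of the genes tested, and 2 of the 13 neuron markers listed were among them. Of the genes that fell, 27.9% were protein coding, and most had no established symbol. These calls depended on single libraries: without dual replicate 2 no gene was called, and without triple replicate 1 none was called either, with 2278 and 2167 genes at an unadjusted p below 0.05 against 2850 with all libraries. The medians of the 103 and 68 genes were 0.81 and -1.06 without dual replicate 2, and 0.85 and -1.08 without triple replicate 1. The groups do not overlap in any of the 171 called genes, which held for 18.7% of all genes tested. That the groups are apart in a called gene named below is thus no separate support. Leaving out a library cannot turn the direction of these genes. None was called either when libraries were scaled to the endothelial identity genes (2053 at an unadjusted p below 0.05), where the medians were 0.93 and -1.06. Over all 19668 genes tested the median log2 fold change was 0.01. With all libraries, 1530 of them were higher and 1320 lower at an unadjusted p below 0.05.

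**Figure D1:**
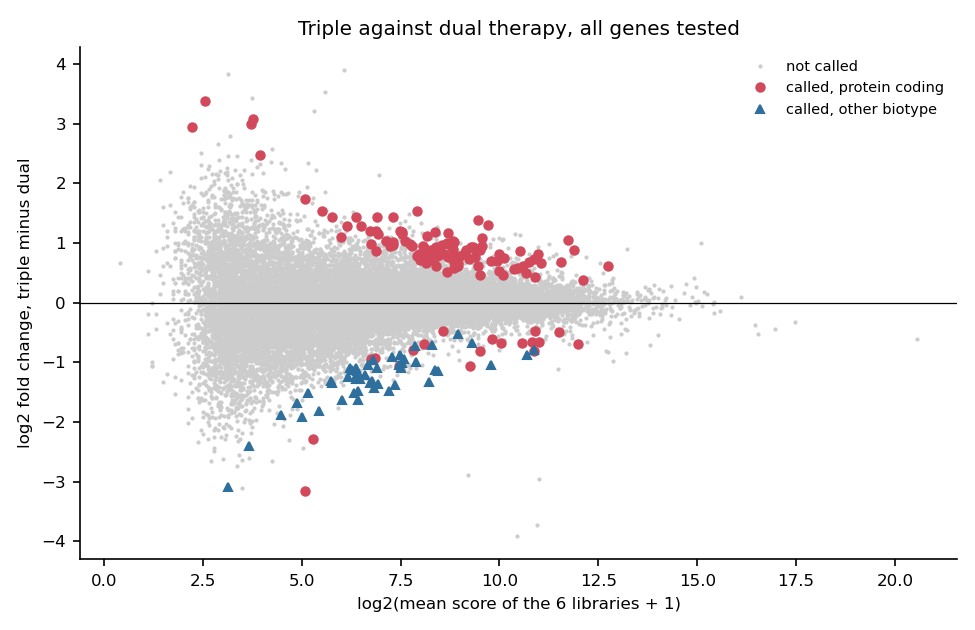
Log2 fold change of triple against dual therapy (vertical axis) against the log2 of the mean score of the 6 libraries plus 1 (horizontal axis), 1 point per gene for the 19668 genes tested. Called genes above 0 are all protein coding (red circles), and most called genes below 0 belong to other classes (blue triangles).

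Of the cell type marker lists, that of neurons held 2 genes that rose, and that of monocytes and macrophages 1. Bulk scores cannot tell more cells of a type from more RNA per cell, and neurons are no part of the vessel wall. Of the 13 neuron markers listed, all were tested and none was at 0 in any library. Slc17a7 and Tubb3 rose, 10 were higher at an unadjusted p below 0.05, and the list's median log2 fold change was 0.81 against 0.01 for all genes. The summed neuron markers were 7406, 6738 and 13056 after dual and 16027, 14917 and 10799 after triple therapy. Dual replicate 3 thus exceeded triple replicate 3, and the groups overlapped in this sum. Markers of other brain cells moved with it. Of 12 astrocyte markers 11 lay above 0 (median 0.36), 5 of them at an unadjusted p below 0.05, and their sums overlapped between the groups. Of 9 microglia markers 8 lay above 0 (median 0.35), and their sums of 1401 to 1690 after dual and 1846 to 2149 after triple therapy did not overlap. No astrocyte or microglia marker was called, and the part of cell content in the rise was not tested.

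Slc17a7, the vesicular glutamate transporter of excitatory neurons, scored 243, 206 and 370 after dual and 626, 539 and 448 after triple therapy. Every triple library was above every dual library, and the log2 fold change was 1.01 ± 0.22 (SE, adjusted p = 0.0397). Bsn, which encodes the presynaptic scaffold Bassoon, scored 361, 410 and 715 after dual and 1284, 1250 and 1000 after triple therapy. Its log2 fold change was 1.31 ± 0.25 (adjusted p = 0.0215). Rab3a, a small GTPase of synaptic vesicles, went from 217, 171 and 155 to 389, 369 and 409, and its log2 fold change of 1.11 ± 0.15 had the smallest adjusted p among the genes that rose (0.00897). The 3 triple libraries of Rab3a lay within 40 units of each other, far above the dual libraries. Sphkap, an anchoring protein of protein kinase A (chromosome 1, 83254139 to 83408200 in GRCm38), scored 109, 97 and 163 after dual and 409, 375 and 279 after triple therapy. Its log2 fold change was 1.54 ± 0.24 (adjusted p = 0.00976).

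Further genes known from neurons were among the 103 that rose. Gpr158, an orphan receptor, went from 108 ± 21.8 (SD, n = 3) to 248.7 ± 39.5. Caly, which encodes an interactor of the dopamine receptor, went from 45 ± 14.8 to 118.7 ± 16.9 (SD, n = 3). In both genes the lowest triple library was above the highest dual library. Dlg2 and Dlgap1, postsynaptic scaffold genes, had log2 fold changes of 0.94 and 0.88, and Gabra4 and Glrb, subunits of inhibitory receptors, of 0.99 and 0.61. Diras2, Lrrn1, B3galt5, Extl1 and Prmt8 were among the largest rises, at 1.44, 1.29, 1.28, 1.43 and 1.73 on the log2 scale. Among genes with Gene Ontology terms in the deposited table, 25 of 95 that rose carried the term synapse (26.3%), against 5.58% of the 12147 annotated genes tested. The term was picked after the calls were seen and its share was not tested.

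Other genes that rose are known from vessel-associated, glial or immune cells. Fkbp5, a co-chaperone of the glucocorticoid receptor that glucocorticoids induce (chromosome 17, 28399095 to 28517524), scored 542, 332 and 305 after dual and 1026, 1116 and 862 after triple therapy (log2 fold change 1.39 ± 0.29, adjusted p = 0.0326). All 3 triple libraries were above every other library of the series, where Fkbp5 lay between 267 and 717. Of the 11 glucocorticoid-responsive genes listed, 8 lay above 0 and 3 below, with a median log2 fold change of 0.20. At an unadjusted p below 0.05, 3 were higher and 0 lower, and Fkbp5 was the only one called. Zbtb16 and Per1, also induced by glucocorticoids, stood at log2 fold changes of 1.15 and -0.34, neither called. Mrc1, the mannose receptor of perivascular macrophages, scored 1974, 1422 and 1483 after dual and 2595, 2102 and 3045 after triple therapy (log2 fold change 0.67 ± 0.14, adjusted p = 0.0365). Mrc1 was the only one of 21 monocyte and macrophage markers called, although 8 were higher at an unadjusted p below 0.05.

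Ptgds, the prostaglandin D synthase abundant in meninges, went from 2696, 2025 and 2020 to 4770, 4019 and 5036. Its log2 fold change was 1.04 ± 0.20 (adjusted p = 0.0196), and all triple libraries were above all dual libraries. Lrp1, an endocytic receptor of the vessel wall and of glia, went from 5380 ± 583 to 8254 ± 596 (SD, n = 3). Itgb8, the integrin subunit of brain parenchyma that activates TGF-beta, went from 510 ± 67.4 to 944 ± 107 (SD, n = 3). The growth factor receptors Fgfr1 and Fgfr2 had log2 fold changes of 0.47 and 0.76. The adaptor Irs2 had one of 0.80, and the podoplanin gene Pdpn one of 0.66. None of the 10 fibroblast markers was called, but all 10 lay above 0, with a median log2 fold change of 0.45 and 7 at an unadjusted p below 0.05. Fbln1, a matrix protein of fibroblasts, had the largest at 1.11.

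**Figure D2:**
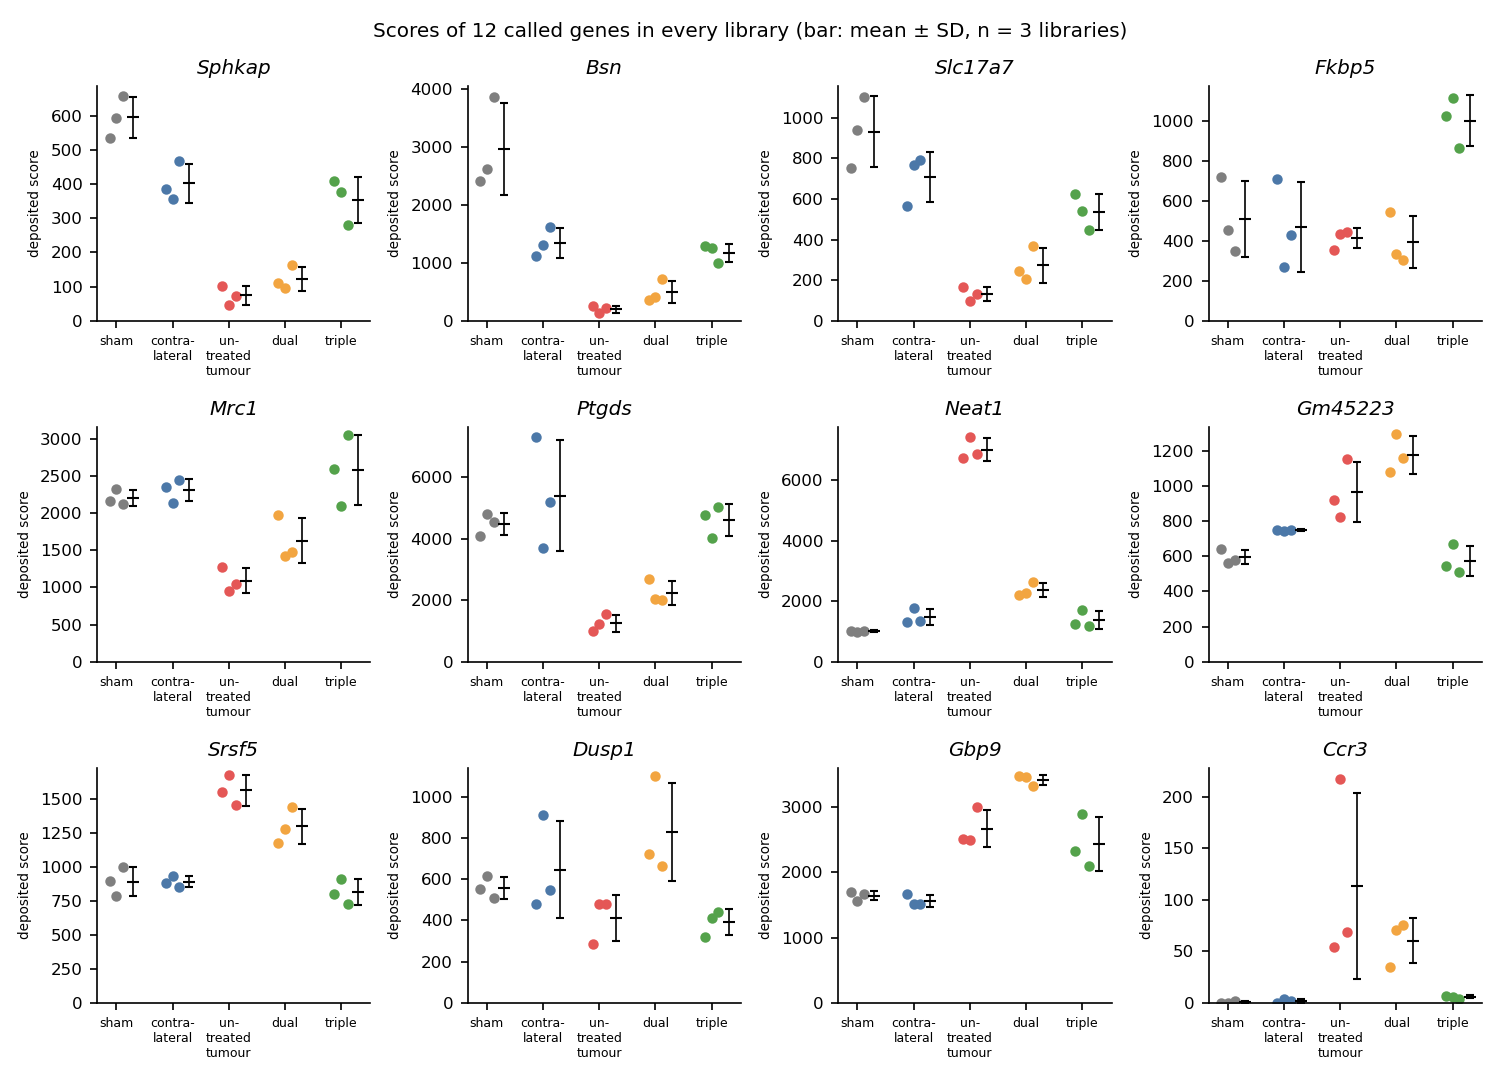
Deposited scores (vertical axes, from 0) of 12 called genes in each library of the 5 groups (horizontal axis). Coloured points are libraries and black bars the mean ± SD of 3 libraries. In all 12 genes the triple and dual libraries do not overlap, as in all 171 called genes. Fkbp5 is higher after triple therapy than in any other library.

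The genes that rose were then set beside the effect of the tumour, in the comparison of untreated tumour with contralateral vessels. Its fold changes use none of the 6 libraries, but its calls rest on a spread estimated from all 15 libraries, those 6 included. A gene with a small spread is thus more readily called in both comparisons. In that comparison 21.1% of the genes tested rose and 21.4% fell. Of the 103 genes that rose with anti-PD-1, 94 (91.3%) had fallen in the untreated tumour and none had risen. Slc17a7, for example, had fallen by 2.44 on the log2 scale there, and Gpr158 by 3.07. Fkbp5 was not called there, at -0.08 ± 0.29 (SE). Relative to the dual therapy mean, the median of the 103 genes lay at -0.34 to -0.66 in the untreated tumour libraries. It lay at 0.79 to 0.97 after triple therapy, 0.98 to 1.12 in contralateral and 1.35 to 1.61 in sham vessels. The triple mean was between the dual and contralateral means in 72 of the 103 genes and above the contralateral mean in 31. The genes were chosen on the dual and triple libraries, so these levels are a description.

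**Figure D3:**
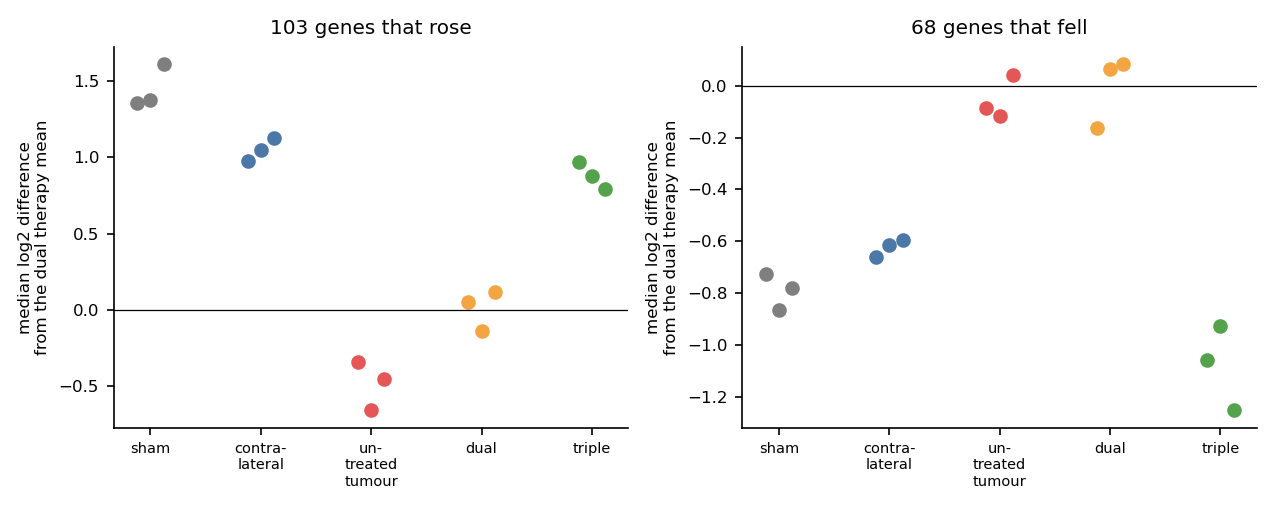
Median log2 difference from the dual therapy mean over the genes that rose (left) and the genes that fell (right), 1 point per library. The genes were chosen on the dual and triple libraries. For the genes that rose, the triple libraries lie between 0.79 and 0.97, near the contralateral libraries, and for those that fell they lie between -1.25 and -0.93, below all other groups.

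The genes that fell differed in kind. Of the 68, 50 (73.5%) had no established symbol, against 24.9% of the genes tested, and 19 were protein coding. TEC genes, a GENCODE class of transcripts that await experimental testing, made up 29 of them (42.6%, against 8.29% of the genes tested). Long intergenic RNAs made up 6 (8.82% against 3.49%), sense-intronic RNAs 5 (7.35% against 0.971%) and antisense RNAs 4 (5.88% against 4.61%). None of these shares was tested. In the untreated tumour 34 of the 68 (50%) had risen against contralateral vessels and 2 had fallen, beside 21.1% and 21.4% of all genes tested.

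Neat1, the long non-coding RNA that builds nuclear paraspeckles (chromosome 19, 5824708 to 5845478), scored 2197, 2278 and 2654 after dual and 1250, 1707 and 1179 after triple therapy. Its log2 fold change was -0.80 ± 0.14 (adjusted p = 0.0153), and it had risen by 2.25 on the log2 scale in the untreated tumour. Of 280 tested genes with the Gene Ontology term RNA splicing 3 fell, namely Srsf5, Luc7l3 and Hnrnph1, beside 68 of all 19668 genes tested (0.346%). The median log2 fold change of the term was -0.06, and its share was not tested. Srsf5, a splicing factor with a serine and arginine domain, scored 1178, 1280 and 1439 after dual and 800, 914 and 728 after triple therapy (log2 fold change -0.68 ± 0.12, adjusted p = 0.0153). Luc7l3, of the U1 particle, went from 2518 ± 320 to 1584 ± 165, and Pnisr, a protein of splicing speckles, from 2417 ± 662 to 1348 ± 151 (SD, n = 3). Hnrnph1, which binds G-rich RNA, had a log2 fold change of -0.47. For Neat1, Srsf5, Luc7l3 and Pnisr no triple library reached the lowest dual library.

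The gene with the smallest adjusted p in the whole comparison was Gm45223, a TEC gene at chromosome 7, 90132492 to 90137629 (GRCm38, plus strand), inside an intron of Picalm, a clathrin adaptor gene. It scored 1079, 1294 and 1158 after dual and 543, 669 and 508 after triple therapy, a log2 fold change of -1.04 ± 0.13 (adjusted p = 0.00411). Gm45222 and Gm45220, which lie in introns of the same gene and strand, had log2 fold changes of -1.14 and -1.04. Picalm itself stood at 0.06 (adjusted p = 0.832). The 3 genes lie in 1 host and may not be independent of each other, but each enters the counts of genes and pairs given here.

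This pattern extended beyond Picalm. Of the 49 fallen genes that are not protein coding, 35 (71.4%) lay inside a protein-coding gene on the same strand, against 37% of all non-coding genes tested, and 34 of them touched no exon of it. The median log2 fold change of the 35 was -1.19 and that of their hosts 0.00. The host was called for 2 of them, Gm37783 and Gm37674, both in Plxna2, a semaphorin receptor gene that rose by 0.68 while the transcripts in its introns fell. Over all 1113 tested TEC genes that lie wholly in introns of 620 tested hosts, the median log2 fold change was -0.51, and that of the hosts was 0.08. The TEC gene stood below its host in 954 of the 1113 pairs (85.7%), and 26 TEC genes fell and none rose. At an unadjusted p below 0.05, 302 were lower and 1 higher, against 1320 lower and 1530 higher among all 19668 genes tested.

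The same pairs gave 1 value per library, the median log2 score of the TEC gene minus that of its host. It was -4.17, -4.22 and -4.17 after dual and -4.81, -4.70 and -5.01 after triple therapy, so that the groups did not overlap. It ran from -3.60 to -4.07 in untreated tumour, from -4.41 to -4.70 in contralateral and from -4.66 to -4.87 in sham vessels. RNA composition also differed between the 2 therapies: the 2 mitochondrial ribosomal RNAs took 15.9%, 17.4% and 15.2% of the score after dual and 12.2%, 9.55% and 11.96% after triple therapy. Both these shares and the values of TEC gene minus host were lower in every triple than in every dual library. Among the triple libraries, replicate 2 had the lowest of these shares and the highest value of TEC gene minus host. TEC genes took 0.645%, 0.636% and 0.729% against 0.513%, 0.550% and 0.413%. The part of RNA composition in the fallen genes was not tested. How counting treated strand is not stated in the labels or notes, so scores of intronic and antisense transcripts are uncertain.

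**Figure D4:**
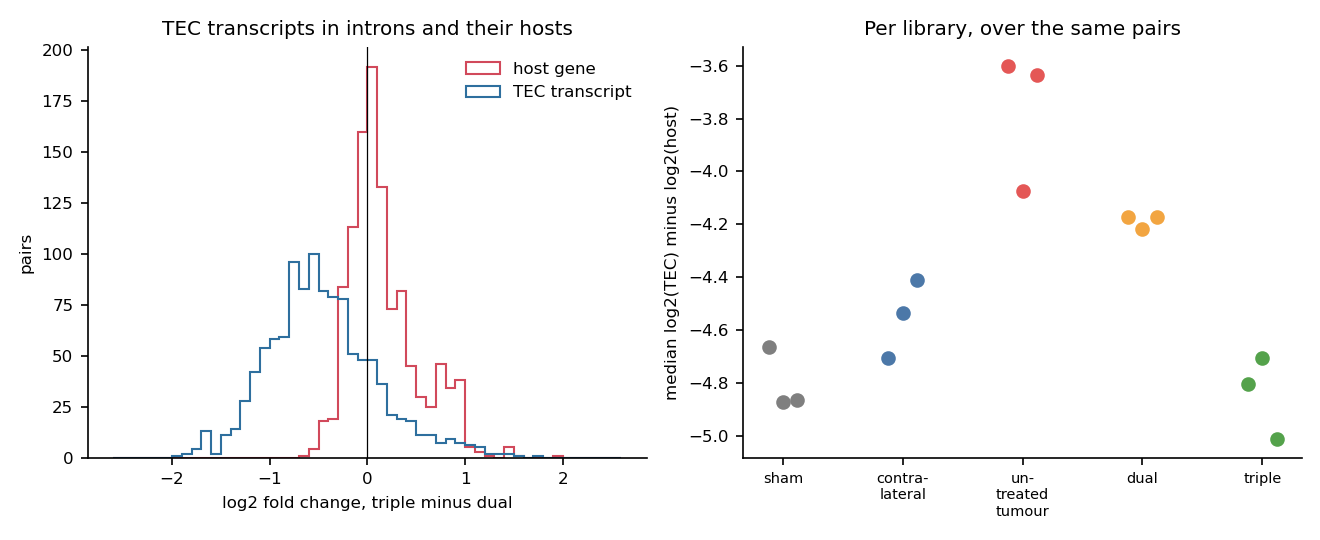
Left: number of pairs (vertical axis) by log2 fold change of triple against dual therapy (horizontal axis) for 1113 TEC genes within introns (blue) and their host genes (red, a host with several TEC genes counted for each). Right: the median log2 score of TEC gene minus host in each library. The triple libraries lie between -5.01 and -4.70 and the dual libraries between -4.22 and -4.17.

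Immediate early genes answer growth factors, shear and stress within minutes, often through cAMP response elements or AP-1 sites in their promoters. Dusp1, a phosphatase that switches off MAP kinases, and Jun, a subunit of AP-1, were the 2 of 15 listed immediate early genes called. Their RefSeq promoters (GRCm38.p6, 250 bases before to 50 after the start, both on the minus strand) are shown because they are the 2 called genes of the list. Capitals mark the cAMP response element TGACGTCA in Dusp1, chr17:26508423-26508722, and the AP-1-like element TGACATCA in Jun, chr4:95052173-95052472.
Dusp1: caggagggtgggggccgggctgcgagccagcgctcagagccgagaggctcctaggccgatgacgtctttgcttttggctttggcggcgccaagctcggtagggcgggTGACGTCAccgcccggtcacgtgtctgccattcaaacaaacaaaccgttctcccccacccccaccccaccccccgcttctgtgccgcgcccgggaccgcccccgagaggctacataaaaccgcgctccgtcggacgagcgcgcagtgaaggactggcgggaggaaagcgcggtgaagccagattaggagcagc
Jun: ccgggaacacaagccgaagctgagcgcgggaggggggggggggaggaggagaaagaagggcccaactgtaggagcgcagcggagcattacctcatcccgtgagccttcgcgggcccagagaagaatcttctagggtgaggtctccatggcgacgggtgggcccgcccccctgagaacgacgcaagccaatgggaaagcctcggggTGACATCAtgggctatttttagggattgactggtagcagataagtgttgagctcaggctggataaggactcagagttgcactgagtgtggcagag
The first motif lies 143 bases before the start of Dusp1 and occurs, on either strand, in 2.77% of 15680 promoters of tested genes. The second lies 45 bases before the start of Jun and occurs in 1.94%. Of 2 other fallen genes searched, Klf6 holds the second motif 119 bases before its start, and Zfp36 holds neither in this window. A match describes the letters and is not evidence of binding.

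Dusp1 scored 725, 1101 and 664 after dual and 320, 412 and 443 after triple therapy, a log2 fold change of -1.06 ± 0.24 (adjusted p = 0.0416). Dual replicate 2 was its highest library. Jun scored 2142, 2258 and 2275 after dual and 1234, 1336 and 1701 after triple therapy (-0.66 ± 0.13, adjusted p = 0.0274), with the groups apart. Klf6, a zinc finger factor of the injured vessel wall, went from 4997 ± 668 to 3092 ± 436, and Zfp36, which destabilises cytokine mRNAs, from 336.7 ± 14.6 to 210.7 ± 33.7 (SD, n = 3). The list did not move as a block. Of its 15 genes 10 lay below 0 and 5 above, with a median log2 fold change of -0.21. The neuronal gene Arc stood at 0.85 and Junb at 0.00, neither called.

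Sema6a, a semaphorin, and Grb14, an adaptor that dampens receptor tyrosine kinases, had log2 fold changes of -0.68 and -0.81. Ssbp1, which binds single-stranded mitochondrial DNA, had one of -0.79. Ccr3, the eotaxin receptor of eosinophils, scored 35, 71 and 75 after dual and 7, 6 and 4 after triple therapy, the largest fall of all called genes at -3.15 ± 0.67 (adjusted p = 0.0359). It scored 54, 217 and 69 in untreated tumour and at most 4 in contralateral and sham vessels.

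Genes of the PD-1 axis and of T cells gave no call. Pdcd1, the gene of PD-1, scored 36, 3 and 44 after dual and 38, 46 and 12 after triple therapy, and Cd274, the gene of PD-L1, scored 1258, 945 and 974 against 709, 1355 and 344. Both pairs of groups overlapped, with adjusted p-values of 0.806 and 0.402. None of the 20 genes of the PD-1 axis and other checkpoints was called, and their median log2 fold change was -0.14. None of 24 T cell markers was called, and their median of 0.15 turned below 0 under 5 of 20 alternatives. Cd8a stood at 0.40 ± 0.53, Cd4 at 0.14 ± 0.39 and Foxp3, the factor of regulatory T cells, at 0.12 ± 0.48 (SE). At scores this low the SE leaves room for changes in either direction.

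Cytotoxic and natural killer cell genes lay on the lower side without a call. Of 15 tested, 14 were below 0, with a median log2 fold change of -0.63. Gzma, a granule protease, scored 256, 283 and 256 after dual and 130, 214 and 75 after triple therapy (-1.04 ± 0.39, adjusted p = 0.211). The receptor gene Ncr1 scored 35, 35 and 45 against 9, 12 and 16 (-1.58, adjusted p = 0.13). The groups did not overlap in either gene, which held for 18.7% of all genes tested. Gzmb scored 124, 96 and 105 against 78, 135 and 31, and these overlapped.

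Among 24 genes induced by interferon-gamma, all stood below 0 with a median log2 fold change of -0.46, and 1 fell. That gene was Gbp9, a guanylate-binding protein, which scored 3470, 3457 and 3324 after dual and 2326, 2899 and 2095 after triple therapy (-0.50 ± 0.11, adjusted p = 0.0433). The sum over the list was 60007, 45302 and 49193 after dual and 37622, 59799 and 24637 after triple therapy. Triple replicate 2 was thus close to the highest dual library while triple replicate 3 was far lower, and the groups overlapped. Cd274 and Gzmb had the same order among the triple libraries. Type I interferon genes lay below 0 in 25 of 26 cases (median -0.31, none called), and the median was -0.18 for MHC class I and 0.35 for MHC class II, with no call in either. The MHC class II median turned below 0 without dual replicate 2, and stood at -0.28 without both that library and triple replicate 1.

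**Figure D5:**
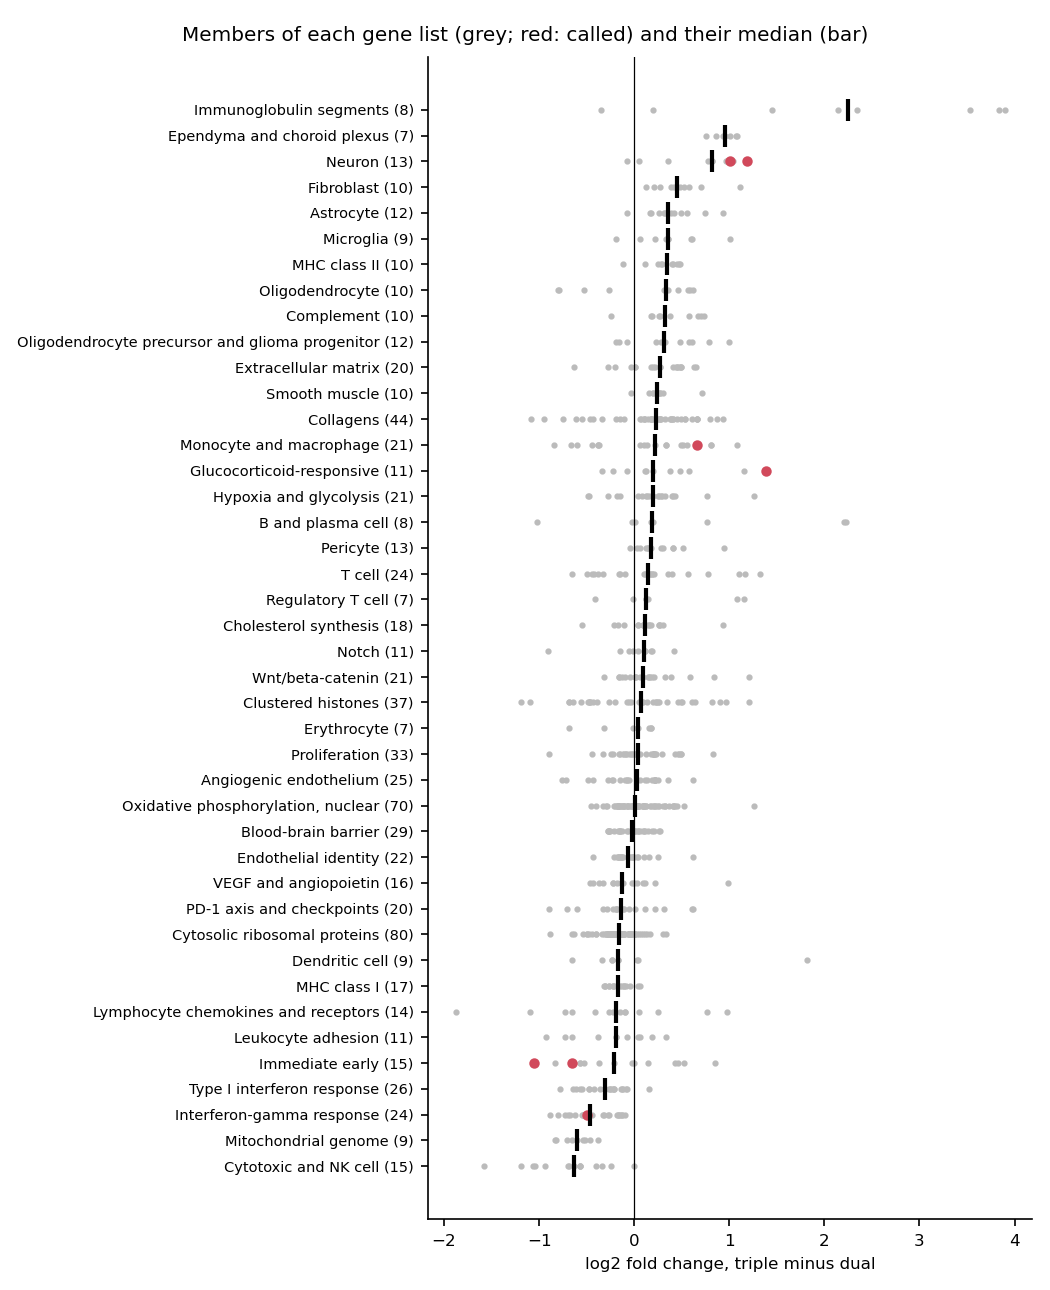
Log2 fold change of triple against dual therapy (horizontal axis) for the members of each gene list with at least 7 genes tested, with the number tested in brackets. Grey points are members, red points called members and black bars list medians. Immunoglobulin, ependyma and neuron lists stand to the right, and interferon and cytotoxic lists to the left, mostly without calls. The immunoglobulin list shows the 8 of 70 segments that passed the filter.

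The vessel gene lists, which cover targets of the dual therapy that both groups received, held no called gene. Medians were -0.02 for 29 blood-brain barrier genes, 0.02 for 6 transcytosis genes, 0.03 for 25 genes of angiogenic endothelium and -0.13 for 16 genes of VEGF and angiopoietin signalling. Kdr, the main VEGF receptor, scored 6640, 8450 and 6766 after dual and 4817, 4828 and 6614 after triple therapy. The groups did not overlap, as in 18.7% of all genes tested, and the log2 fold change of -0.43 ± 0.14 was not called (adjusted p = 0.158). Cldn5, the tight junction protein, stood at -0.27 ± 0.14, Angpt2 at -0.23 ± 0.34 and Vegfa at -0.18 ± 0.21 (SE). Mfsd2a, the lipid transporter that limits transcytosis, stood at 0.00 ± 0.22, and Plvap, of leaky endothelium, at 0.12 ± 0.29. Of 13 pericyte markers 12 lay above 0 (median 0.18), 6 at an unadjusted p below 0.05 and none called. Kcnj8, a channel subunit of pericytes, had the largest log2 fold change of these at 0.94. Of 33 proliferation genes none was called (median 0.03). Mki67 scored 671, 335 and 597 after dual and 703, 761 and 649 after triple therapy, against 5465, 1933 and 3323 in untreated tumour.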

How the data were processed

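Per the labels' protocols, stranded total RNA libraries (SMARTer, Clontech) were made from 100 ng of DNase-treated RNA. The submitters' processing notes name STAR 2.4.0a, featureCounts 1.4.5-p1, DESeq2 and the mouse build GRCm38 (mm10). The values deposited by the authors are a normalised score per gene and library, in whole numbers. Reads per library were estimated here from the gaps between scores.

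Scores were fitted as log2(value + 1) in R 4.3.3 by limma 3.58.1, using a trended prior variance, 1 mean per group, 10 residual and 8.26 prior degrees of freedom, and Benjamini-Hochberg adjustment. Genes were called at an adjusted p below 0.05. Fold changes of low scores are understated on this scale. Errors after a fold change are SE of this fit. The fit was tested on simulated data. Gene classes and introns came from GENCODE M21, which held 99.8% of the identifiers, and promoters from RefSeq.

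The comparison and gene lists were chosen with earlier results of these data known. The text names, in each direction, up to 12 called genes of largest change whose higher mean reaches 50, whose groups do not overlap and which have an established symbol, then up to 4 called members of each list (or the 2 with the highest mean), and a fixed set of checkpoint, lymphocyte and vessel genes. Others named, such as Rab3a, Ptgds, Ncr1 and Gm45223, were chosen after their values were seen. A result that the naming rule includes is not reported here. Alternatives covered the pseudocount, filter, samples in the fit, trend, scaling, weights, voom on approximate reads, a replicate block and leaving out each library.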

Additional observations from a re-analysis of the deposited data

How the results depend on the processing

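The 103 rises and 68 falls became 19 and 12 when only the 6 libraries were fitted, 5 and 9 without the trend, 223 and 104 with array quality weights, and 132 and 108 with voom on approximate reads. Scaling each library to the endothelial identity genes left 0 and 0 (smallest adjusted p 0.0716, 2053 genes at an unadjusted p below 0.05) and left 2203 genes that fell in untreated tumour against contralateral vessels, compared with 4207. This scaling moved the median of all genes to 0.05. The share of calls that rose was 60.2%, against 51.5% (69 and 65) after quantile normalisation, 35.7% without the trend and 83.5% without dual replicate 3. Leaving out 1 library at a time gave 0 to 202 rises and 0 to 111 falls: 0 of each without triple replicate 1 or dual replicate 2, 50 and 50 without triple replicate 2, 18 and 11 without triple replicate 3, 165 and 111 without dual replicate 1, and 202 and 40 without dual replicate 3. Without both dual replicate 2 and triple replicate 1, an alternative chosen after seeing the data, none was called (limma, 1811 genes at an unadjusted p below 0.05). Where called genes were lost, the cause was not tested. The replicate block gave 103 and 66 in the full fit, and 0 and 0 in the 6 libraries alone, where 2244 genes had an unadjusted p below 0.05. Deviations of same-numbered dual and triple libraries correlated at -0.016, -0.048 and -0.128, which shows no pairing by number. The labels state no pairing, and so few libraries cannot exclude one. Other pseudocounts, filters and a median of ratios scaling gave 97 to 117 rises and 66 to 81 falls. The adjusted p of Fkbp5 ran from 0.0190 to 0.319 over 20 alternatives, that of Srsf5 from 0.00884 to 0.219 and that of Gbp9 from 0.0198 to 0.345. List medians kept their sign in all 20 for neuron (0.58 to 1.08), interferon-gamma (-0.78 to -0.07), cytotoxic (-1.06 to -0.34) and TEC genes (-0.56 to -0.32), but not for T cell or MHC class II genes, which reached -0.33 and -0.28.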

Other observations

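Immunoglobulin genes, made by B and plasma cells, were tested for 8 of 70 entries, since the others had low scores in most libraries. A gene could pass through the triple libraries alone, so the median of 2.24 over the 8 is a description, and it was 1.0 with no filter. None was called. Ighg2c scored 3, 4 and 5 after dual and 187, 10 and 190 after triple therapy (adjusted p = 0.086 in limma), and Igkc scored 47, 9 and 85 against 367, 54 and 176. Triple replicate 2 was far below the other triple libraries in both genes. Untreated tumour replicate 3 also stood above its group, at 88 for Ighg2c. The 8 markers of B and plasma cells tested had a median of 0.19.

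Ependyma and choroid plexus genes were all above 0 in 7 of 7 cases, with a median log2 fold change of 0.95 and none called. Ttr, the transthyretin made by choroid plexus, scored 30445, 21214 and 15590 after dual and 42830, 25170 and 76214 after triple therapy, and the groups overlapped. Contralateral vessels scored 80756, 39222 and 59981. Hydin, a gene of motile cilia, was called, with 21, 24 and 21 after dual and 62, 51 and 90 after triple therapy.

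The median over the 4 ribosomal RNA-like genes was -3.34 on the log2 scale, with 3 lower at an unadjusted p below 0.05 and none called, and they varied widely between libraries. Gm26917, by far the highest scored of the 4, had a log2 fold change of only -0.32 ± 0.26 (SE). It scored 236164, 210846 and 155526 after dual and 117875, 224810 and 149464 after triple therapy, and the groups overlapped. Mir6236 scored 568, 7103 and 3474 after dual and 164, 68 and 529 after triple therapy, and Lars2, listed with them, 906, 5922 and 4267 against 312, 267 and 592. In both genes every triple library was below every dual library, and groups that do not overlap were found in 18.7% of all genes tested. All 9 genes of the mitochondrial genome tested lay below 0, with a median of -0.61.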
